A study of Homo sapiens with 4 samples.

Results

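The genes described here control the release of paused RNA polymerase II through the kinase P-TEFb: the noncoding RNA RN7SK (7SK RNA), its binding proteins LARP7 and MEPCE, the P-TEFb inhibitors HEXIM1 and HEXIM2, the P-TEFb subunits CDK9, CCNT1 and CCNT2, and the scaffold AFF4. They were taken by symbol from a deposited table of estimated read counts with 35820 gene rows. Of the 9 named genes, 8 have a row in that table and passed the filter on low counts; HEXIM1 was not analysed here. RN7SK was singled out because of the large share of counts it takes, so it was chosen by its measured counts, and its levels and its difference between groups are given as a description, with no test. The other 7 were named for their function. The 4 libraries were ribosomal RNA-depleted total RNA of HCT116, a human colon cancer cell line. The wild-type group (WT) had 2 libraries, and the knockout group (KO) had 2 libraries of clone E2-4, in which a CRISPR guide RNA was directed at exon 2 of TOP3B, a topoisomerase that acts on RNA and DNA. No treatment is given in the labels, and the series asks how loss of TOP3B affects transcription and R-loops. The KO group is 1 clone, so clone and genotype cannot be told apart. Nothing in the labels tells if replicates were grown as separate cultures, so p-values measure the spread between these libraries, which may be technical.

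7SK is an abundant nuclear RNA made by RNA polymerase III. MEPCE adds the methyl cap at its 5′ end and LARP7 holds its 3′ end. HEXIM1 or HEXIM2, once bound to 7SK, inhibits P-TEFb, a pair of the kinase CDK9 with cyclin T1 (CCNT1) or cyclin T2 (CCNT2). Free P-TEFb phosphorylates RNA polymerase II and the pausing factors NELF and DSIF, which lets a paused polymerase elongate. AFF4 carries P-TEFb in the super elongation complex.

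The 5′ part of 7SK holds the hairpin that HEXIM proteins bind, which is known for its GAUC repeats. It is shown here because near-identical copies of this stretch have rows of their own in the table. In GENCODE 29 the RN7SK entry (ENSG00000283293) is 328 bases long and lies at chr6:52995621-52995948 on the plus strand of GRCh38. The first bases of that entry are printed with GATC in capitals, a motif that reads the same on both strands and occurs 3 times in the entry, at positions 12, 41 and 63 counted from its first base. Of 35116 RefSeq promoter windows (GRCh38.p14) trimmed to the length printed, 18.2% held at least 1 GATC and 0.165% at least 3. The repeats were known beforehand and the windows are promoter DNA, so these shares are no test of the RN7SK stretch. The same stretch of RN7SKP203 and RN7SKP71, the pseudogene copies with the most counts, follows with capitals where they differ from RN7SK.
RN7SK: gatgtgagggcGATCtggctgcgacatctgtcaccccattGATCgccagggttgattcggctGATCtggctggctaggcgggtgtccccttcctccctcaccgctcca
RN7SKP203: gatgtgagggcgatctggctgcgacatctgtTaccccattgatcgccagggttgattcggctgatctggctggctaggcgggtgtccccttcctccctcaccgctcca
RN7SKP71: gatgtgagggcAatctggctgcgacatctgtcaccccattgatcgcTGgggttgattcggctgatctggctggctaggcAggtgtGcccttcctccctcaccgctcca
RN7SKP203 differed from RN7SK at 1 base of this stretch and kept 3 GATC motifs, and RN7SKP71 differed at 5 bases and kept 2.

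The count table may hold the 7SK locus under a further name. The symbol 7SK, which has a row of its own, belongs to 7 gene entries in the reference names, and 1 of them (ENSG00000202198, 331 bases) covers the RN7SK locus itself. The other entries are 244 to 298 bases long. From the deposited RPKM and counts, the row named 7SK was given a length of 330.1 bases and the RN7SK row one of 327, each about 1 base under the length of an entry at the RN7SK locus. The longer entry contains all 328 bases of the RN7SK entry and 1 more base at the 5′ end. The 3′ ends are shown because the entries also differ there, with capitals for the bases that the RN7SK entry lacks.
RN7SK entry: gaggcgctgcatgtggcagtctgcctttct
7SK entry: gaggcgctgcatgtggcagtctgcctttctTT
Reads from the body of the RNA fit both entries, so how the estimates divide between these rows is uncertain. These lengths come from GENCODE 29 and not from the authors' annotation, so whether both rows count the same locus was not settled.

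The libraries held 10450048 to 16143634 estimated counts, and 3 counts correspond to 0.176 to 0.271 CPM, the usual scaled count, here corrected for library size and edgeR's TMM factor. WT replicate 1 stood apart, with a TMM factor of 0.858 against 1.04 to 1.06 in the other libraries. TOP3B RNA stood at 57.1 and 66.5 CPM in WT and at 43.9 and 54.7 CPM in KO (log2 fold change -0.32, SE 0.17; by edgeR, adjusted p = 0.522), and an edit in 1 exon need not remove the transcript, so this RNA level is no test of the knockout. Of 10 colon epithelial markers in the table, 7 exceeded 1 CPM in all libraries, and their summed level was 2467 to 2947 CPM in WT and 1719 to 1815 CPM in KO, most of it KRT19. Of 13 markers of other cell types, 6 were at 0 in all libraries (PTPRC, CD3E, LYZ, COL1A2, LUM and VWF), and the sum was 3.36 to 4.16 CPM in WT and 2.76 to 3.34 CPM in KO. The part of the epithelial difference in the results below was not tested. Estimated counts can be low for genes that every cell uses, as for ACTB with 426 to 1006 counts, so low estimates of single genes are uncertain.

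RN7SK had the highest count of all genes in each of the 4 libraries. It took 886172 and 540521 counts in WT and 370428 and 521341 counts in KO. Its share of the column sum was 5.85% and 4.60% in WT (replicates 1 and 2) and 3.54% and 3.23% in KO. Exact 95% Clopper-Pearson intervals, which cover counting error only, ran from 5.84% to 5.86% for WT replicate 1 and from 3.22% to 3.24% for KO replicate 2. One count in every 17.1 of WT replicate 1 was RN7SK, against one in 31.0 of KO replicate 2. Both KO shares lay below both WT shares, where 23.5% of all genes tested had such an order in CPM. The WT libraries differed from each other by more than the KO libraries did. The mean KO share was 0.648 of the mean WT share. Without WT replicate 1 this ratio was 0.736. With all 4 libraries, but set against all counts outside RN7SK, SNORD3A and RMRP, it was 0.626.

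On the CPM scale RN7SK stood at 68284 and 44264 in WT and at 33472 and 30610 in KO, which gives 56274 ± 16985 for WT and 32041 ± 2023 for KO (mean ± SD, n = 2 libraries). WT replicate 1 was the high library and WT replicate 2 lay nearer to the KO libraries. The WT mean was 1.76 times the KO mean, with a fitted log2 fold change of -0.81. The log2 fold change was -0.63 with library size alone as scaling and -0.62 with the deposited RPKM, so its size depends on the scaling. Without WT replicate 1 the log2 fold change was -0.47. In bulk RNA, a lower share of cells with a transcript and less of it per cell cannot be told apart.

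**Figure D1:**
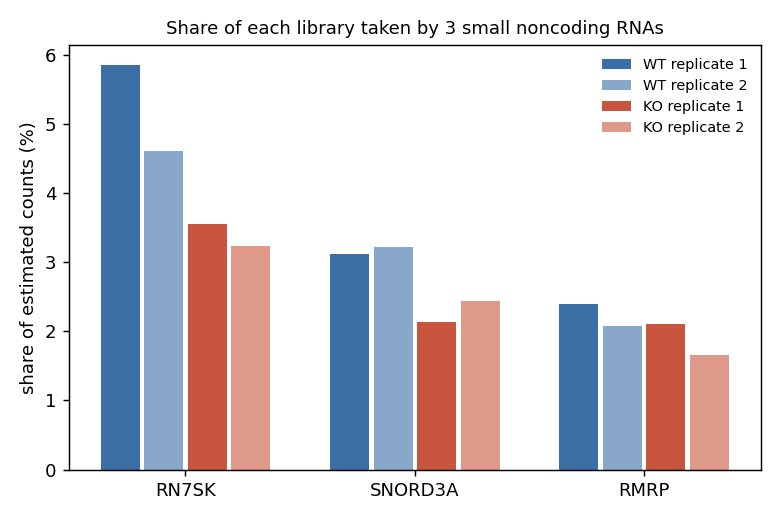
Share of each library's estimated counts (%) taken by RN7SK, SNORD3A and RMRP, with 1 bar per library (WT blue, KO red; replicate 2 paler). RN7SK runs from 5.85% in WT replicate 1 to 3.23% in KO replicate 2.

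The ratio of RN7SK to other abundant small RNAs within a library does not depend on scaling. RMRP, the RNA of the RNase MRP ribonucleoprotein, is like 7SK a product of RNA polymerase III. RN7SK was 2.45 and 2.22 times RMRP in the WT libraries and 1.68 and 1.94 times RMRP in the KO libraries, so these groups did not overlap. Against SNORD3A (U3), a small nucleolar RNA that acts in ribosomal RNA processing and is made by RNA polymerase II, the ratio was 1.87 and 1.43 in WT and 1.66 and 1.33 in KO, and these groups overlapped. Among all genes tested, 23.5% had both KO values below both WT values in CPM, and RN7SK was chosen by its counts. The separation of the groups in the ratio to RMRP is therefore a description only. RN7SK made up 51.5% and 46.5% of the counts of these 3 RNAs in WT and 45.5% and 44.1% in KO.

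Rows of 7SK sequence other than RN7SK held few counts. The row named 7SK had 2869 and 593 counts in WT and 252 and 139 in KO. Relative to 1000 counts of RN7SK these are 3.24, 1.097, 0.680 and 0.267 counts, so the row differed more between the WT libraries than RN7SK did. Both KO counts of this row were under the lower WT count. Since the row's length matches an entry at the RN7SK locus, it was not used as a separate measure of 7SK.

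The table also has 285 rows named RN7SKP for pseudogene copies, of which 230 were at 0 in all libraries. Aligned to RN7SK, the copies had a median identity of 85.4% over the aligned bases, and the longest stretch identical to RN7SK was 145 bases, against reads of 150 bases. Together these rows held 954 and 2103 counts in WT and 600 and 1428 in KO. RN7SKP203 (chromosome 2, 98.3% identical over 240 aligned columns) had 307 and 1371 counts in WT and 141 and 579 in KO. RN7SKP71 (chromosome 12, 97.1% identical) had 369 and 611 counts in WT and 326 and 633 in KO. In both copies the replicate 2 libraries were higher within each group and the groups overlapped, unlike RN7SK. RN7SKP255 (chromosome 14, 98.3% identical) had 116 counts in WT replicate 1 and 7 to 14 in the other libraries. All rows other than RN7SK came to 0.230% to 0.499% of the RN7SK counts, so their division moves the RN7SK share little.

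**Figure D2:**
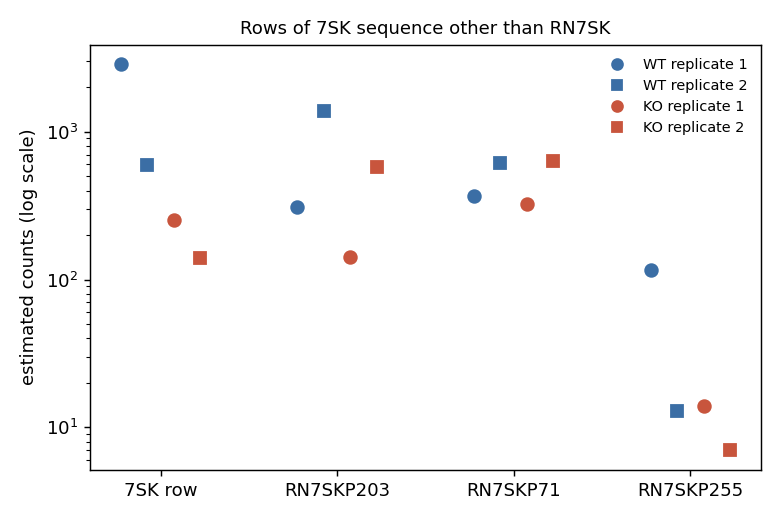
Estimated counts (log axis) in each library for the row named 7SK and the 3 pseudogene copies with the most counts (WT blue, KO red; circles replicate 1, squares replicate 2). The row named 7SK runs from 2869 to 139 counts, while RN7SKP203 and RN7SKP71 have overlapping groups.

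Of the 7 protein-coding genes, edgeR called 0 at an adjusted p under 0.05, 0 had an unadjusted p under 0.05, and DESeq2 called 0. Over all 12269 genes tested, 0.00815% were called by edgeR, 11.2% had an unadjusted p under 0.05, and 1.45% of the genes DESeq2 tested were called. Of the 7, 6 had a log2 fold change below 0, with a median of -0.33, against a median of -0.01 and 51.5% below 0 over all genes tested. The members' median was -0.14 without WT replicate 1, -0.16 without WT replicate 2 and -0.13 with library size alone, each with 5 of 7 below 0. In 3 of the 7 (MEPCE, CCNT2 and AFF4) both KO values were under the lower WT value, and in 0 both were above the higher one, where 23.5% of all genes tested fell in each of these classes. Adjusted p-values ran from 0.489 to 0.855 by edgeR and from 0.687 to 0.997 by DESeq2.

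The proteins that stabilise 7SK come first. MEPCE, the capping enzyme (ENSG00000146834, chromosome 7), stood at 84.3 and 61.4 CPM in WT and at 57.9 and 49.9 CPM in KO. Both KO libraries were below both WT libraries, but WT replicate 2 and KO replicate 1 were close. The log2 fold change was -0.44 (SE 0.20, 95% interval -0.94 to 0.07; by edgeR, adjusted p = 0.489), which was the smallest p of the 7, and it was -0.19 without WT replicate 1. LARP7 (ENSG00000174720, chromosome 4) stood at 36.6 and 35.9 CPM in WT and at 23.9 and 40.8 CPM in KO. The WT libraries were nearly equal and the KO libraries lay on either side of them. The log2 fold change of LARP7 was -0.16 (SE 0.28, interval -0.87 to 0.55; by edgeR, adjusted p = 0.833), and it was 0.17 without KO replicate 1.

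HEXIM2, which can take the place of HEXIM1 as inhibitor (ENSG00000168517, chromosome 17), had low estimated counts. It stood at 5.63 and 10.2 CPM in WT and at 6.69 and 4.52 CPM in KO, from 73 to 125 counts. The groups overlapped, with WT replicate 2 the highest. The log2 fold change was -0.51 (SE 0.41, interval -1.57 to 0.56; by edgeR, adjusted p = 0.644). That interval spans a KO level of 0.337 to 1.47 times WT, so a wide range of changes in either direction could not be told from none.

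CDK9, the kinase of P-TEFb (ENSG00000136807, chromosome 9), stood at 32.3 and 17.03 CPM in WT and at 25.6 and 13.9 CPM in KO. The libraries numbered 1 were the higher ones in both groups, and the groups overlapped. Its log2 fold change was -0.33 (SE 0.43, interval -1.43 to 0.77; by edgeR, adjusted p = 0.771), and leaving out WT replicate 1 gave 0.21, leaving out KO replicate 2 gave 0.05. The cyclins varied least among the members. CCNT1 (ENSG00000129315, chromosome 12) stood at 102.6 and 110.8 CPM in WT and at 115.3 and 107.2 CPM in KO, with overlapping groups (log2 fold change 0.06, SE 0.12, interval -0.24 to 0.36; by edgeR, adjusted p = 0.855). Without WT replicate 1 the CCNT1 value was 0.0056. CCNT2 (ENSG00000082258, chromosome 2) stood at 118.6 and 113.2 CPM in WT and at 101.7 and 108.6 CPM in KO, with both KO libraries just below WT (-0.14, SE 0.11, interval -0.43 to 0.15; by edgeR, adjusted p = 0.643), although the log2 fold change was 0.02 with library size alone as scaling. For CCNT1 the interval leaves a KO level of 0.844 to 1.29 times WT, and for CCNT2 one of 0.741 to 1.11 times. The ratio of CCNT1 to CCNT2 counts within a library was 0.866 and 0.979 in WT and 1.13 and 0.988 in KO, with WT replicate 2 and KO replicate 2 nearly equal. CCNT2 was 3.67 and 6.64 times CDK9 in WT and 3.98 and 7.80 times in KO, so this ratio differed more within groups than between them.

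AFF4, the scaffold (ENSG00000072364, chromosome 5), had 75 to 159 counts per library. It stood at 10.0 and 12.4 CPM in WT and at 6.78 and 9.34 CPM in KO. Both KO libraries were below both WT libraries, with KO replicate 2 near WT replicate 1. The log2 fold change was -0.47 (SE 0.28, interval -1.20 to 0.25; by edgeR, adjusted p = 0.552). Without KO replicate 1 it was -0.26, without KO replicate 2 -0.73, and without WT replicate 2 -0.30.

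**Figure D3:**
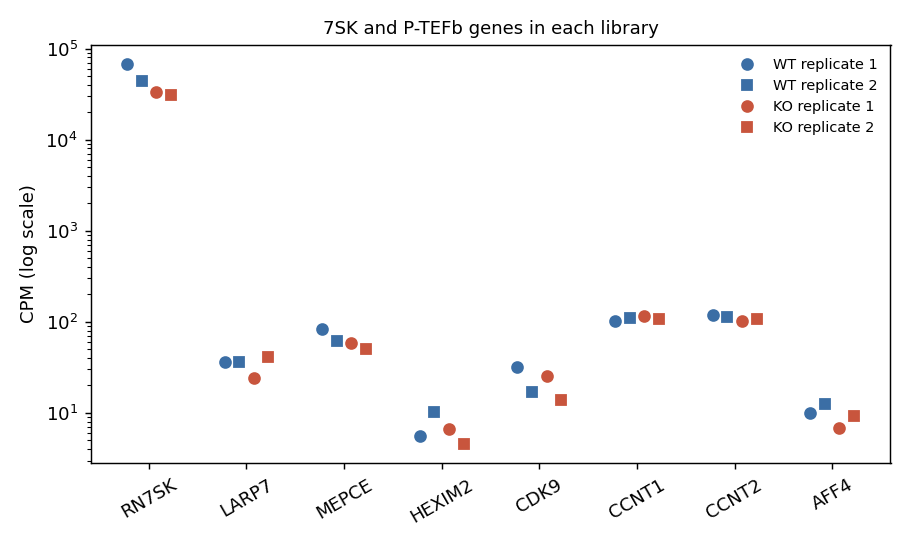
Level of the 8 genes in each library in CPM (log axis; WT blue, KO red; circles replicate 1, squares replicate 2). RN7SK lies between 30610 and 68284 CPM, and the protein-coding genes lie between 4.52 and 118.6 CPM.

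**Figure D4:**
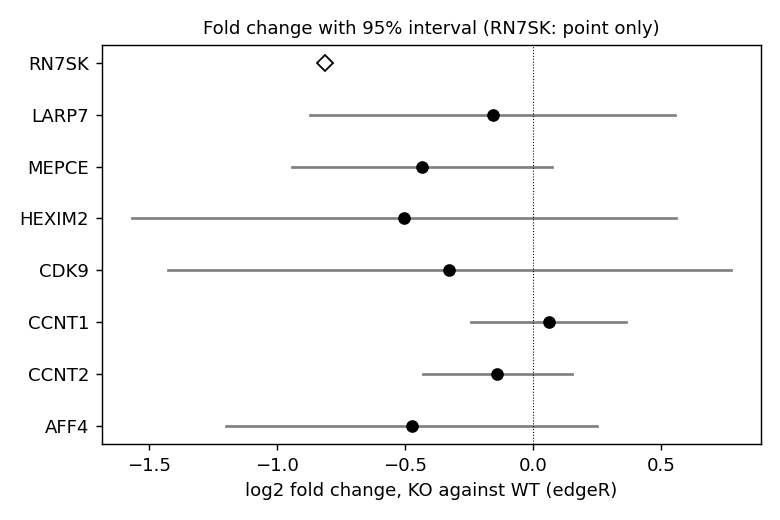
Log2 fold change of KO against WT for the 8 genes, with 95% intervals from the edgeR fit for the 7 protein-coding genes and a point without an interval for RN7SK. All 7 intervals include 0.

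Levels between genes are compared per length, as CPM per kilobase of annotated exon in GENCODE 29, averaged over the 4 libraries. RN7SK stood at 134627 (93323 to 208184) on this scale. MEPCE followed at 18.5 (14.6 to 24.7 over libraries), then CCNT1 at 14.8 (13.9 to 15.6) and CCNT2 at 12.2 (11.2 to 13.1). LARP7 stood at 8.40 (5.87 to 9.99), CDK9 at 7.40 (4.64 to 10.8), HEXIM2 at 3.32 (2.22 to 5.02) and AFF4 at 0.854 (0.600 to 1.102). The ranges of MEPCE and CCNT1, of LARP7 and CDK9, and of CDK9 and HEXIM2 overlapped, and those of the other neighbours in this order did not. The deposited RPKM divide by other lengths, 15147 bases for LARP7 against 4083 bases of exon, and place CDK9 (6.63 to 12.5 RPKM) above CCNT1 (4.81 to 6.68 RPKM). CDK9 contains the microRNA genes MIR3960 and MIR2861 on the same strand, and MEPCE, LARP7, HEXIM2, CCNT2 and AFF4 overlap genes on the other strand.

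By level across the 4 libraries, the genes nearest to RN7SK among 3303 with a mean of at least 50 CPM were RPL23AP42, TMEM123, RPL37, LDHA and PKN2. The measure was the root mean square difference of log2 CPM after each gene was centred on its mean, which was 0.063 for RPL23AP42, a ribosomal protein pseudogene, and 0.081 for PKN2, a protein kinase. LDHA is lactate dehydrogenase and RPL37 a ribosomal protein. All 5 were 0.68 to 0.76 above their mean in WT replicate 1, as RN7SK was with 0.70. In each, WT replicate 1 was the library farthest from the mean. The genes were picked by this pattern, so the likeness is a description only.

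A wider set of 181 named genes around P-TEFb was read from fixed lists, of which 138 were tested. By edgeR 0 passed the adjusted threshold, and 12 lower and 6 higher in KO had an unadjusted p under 0.05, together 13.0% against 11.2% of all genes tested (6.21% lower and 4.97% higher). By DESeq2 3 were lower and 1 higher, where 0.946% and 0.504% of all genes were called. The 4 were SSB, PPP3CA, SNORD3A and SCARNA6. With library size alone as scaling the median of all genes moved up by 0.16, and medians of the lists below moved with it. Without WT replicate 1 the medians of the 7SK-binding, release and pausing factor lists were -0.03, 0.02 and 0.04.

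SSB encodes the La protein, which binds the 3′ ends of new RNA polymerase III transcripts. It stood at 30.8 and 34.8 CPM in WT and at 63.1 and 64.9 CPM in KO, higher in both KO libraries. The log2 fold change was 0.96 (SE 0.14; by edgeR, adjusted p = 0.246; DESeq2 adjusted p = 0.00156). Without WT replicate 1 the log2 fold change was 0.88. SSB was the single gene called by DESeq2 among 8 tested 7SK-binding proteins, whose median log2 fold change was -0.19. HNRNPA1, an hnRNP that binds 7SK freed from P-TEFb, stood at 4903 and 3101 CPM in WT and at 2722 and 2558 CPM in KO (-0.60, SE 0.25; by edgeR, adjusted p = 0.465). The RNA helicases DHX9 and DDX6 had log2 fold changes of 0.41 and -0.73, with edgeR adjusted p values of 0.466 and 0.474.

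PPP3CA, the catalytic subunit of the phosphatase calcineurin, was taken from the list of 13 tested factors linked to the release of P-TEFb from 7SK. It stood at 508.5 and 504.3 CPM in WT and at 284.5 and 297.4 CPM in KO, with close replicates and both KO libraries lower. The log2 fold change was -0.80 (SE 0.11; by edgeR, adjusted p = 0.246; DESeq2 adjusted p = 1.44e-05), and without WT replicate 1 it was -0.79 (DESeq2 adjusted p = 1.39e-06). PPM1G, another phosphatase, had 8.78 and 10.2 CPM in WT and 14.6 and 13.4 CPM in KO (0.56, SE 0.22; by edgeR, adjusted p = 0.445). JMJD6, a demethylase and hydroxylase, and TRIM28 (KAP1), known to hold 7SK complexes at promoters, had log2 fold changes of 0.21 and -0.24. The list's median was -0.07.

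Among the tested partners of AFF4 in the super elongation complex, with a median of 0.01 over 8 genes, MLLT3 (AF9) stood at 17.5 and 17.7 CPM in WT and at 10.8 and 10.9 CPM in KO (-0.70, SE 0.19; by edgeR, adjusted p = 0.351; DESeq2 adjusted p = 0.463). ELL3, EAF2 and ELL had log2 fold changes of 0.50, 0.85 and 1.51, the latter from a WT mean of 0.609 CPM, with edgeR adjusted p values of 0.514 to 0.617. The 5 tested subunits of NELF and DSIF, the pausing factors that P-TEFb phosphorylates, had a median of -0.20, and 0 had an unadjusted p under 0.05. The log2 fold changes were -0.29 for NELFA, -0.20 for NELFCD, 0.18 for NELFE and -0.29 for the DSIF subunit SUPT4H1. Of the 11 other transcription kinases and cyclins, with a median of 0.03, 0 had an unadjusted p under 0.05. CCNK, CCNL1 and MNAT1 had log2 fold changes of 0.38, 0.17 and -0.28, and CDK13 had 1.45 at levels of 0.539 to 3.23 CPM. Of 14 PAF1 complex and other elongation factors, the histone chaperone subunit SUPT16H stood at 20.03 and 18.4 CPM in WT and at 31.4 and 28.5 CPM in KO (0.64, SE 0.16; by edgeR, adjusted p = 0.340). RTF1 had 4.62 and 2.78 CPM in WT and 1.36 and 1.47 CPM in KO (-1.38, SE 0.44; by edgeR, adjusted p = 0.393). LEO1, like RTF1 a PAF1 complex protein, and the histone methyltransferase SETD2 had log2 fold changes of -1.40 and -0.24, with edgeR adjusted p values of 0.561 each. Of 12 tested early response genes, which are known for paused polymerase, 1 had an unadjusted p under 0.05, where 11.2% of all genes tested did. It was IER3, with 35.4 and 41.0 CPM in WT and 24.2 and 26.3 CPM in KO (-0.60; by edgeR, adjusted p = 0.353). FOS, ATF3 and MYC had log2 fold changes of 0.56, 0.42 and 0.11, with edgeR adjusted p values of 0.557 to 0.740.

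RNA polymerase III and the factors of the promoter type that drives RN7SK were read next, and their 23 tested genes had a median of 0.05. In 10 of them both KO libraries lay above WT and in 4 below, where 23.5% of all genes tested did so each way. POLR3G, a polymerase III subunit, stood at 245.0 and 219.5 CPM in WT and at 168.0 and 164.1 CPM in KO, lower in both KO libraries (-0.48, SE 0.12; by edgeR, adjusted p = 0.327; DESeq2 adjusted p = 0.131). The core subunit POLR3B had 0.462 and 0.246 CPM in WT and 5.33 and 1.23 CPM in KO, few counts and unequal KO libraries (3.15, SE 0.92; by edgeR, adjusted p = 0.378). POLR3K and POLR3A had log2 fold changes of 1.19 and 0.75 (by edgeR, adjusted p = 0.474 and 0.487). Of 11 polymerase II subunits, with a median of 0.05, POLR2L had 45.7 and 6.06 CPM in WT and 0 and 1.06 CPM in KO. The WT libraries were far apart, and its edgeR adjusted p was 0.349. POLR2K had 4.93 and 4.26 CPM in WT and 8.04 and 7.93 CPM in KO (0.80, SE 0.27; by edgeR, adjusted p = 0.417), and POLR2G and POLR2H had log2 fold changes of 0.23 and -0.21. Among 17 genes of the little elongation and Integrator complexes, which act at small nuclear RNA genes, INTS9 had 5.39 and 4.83 CPM in WT and 13.1 and 8.51 CPM in KO (1.07, SE 0.32; by edgeR, adjusted p = 0.382). ICE2, INTS12 and INTS8 had log2 fold changes of 0.34, 0.41 and -0.26, with edgeR adjusted p values of 0.529 to 0.565.

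**Figure D5:**
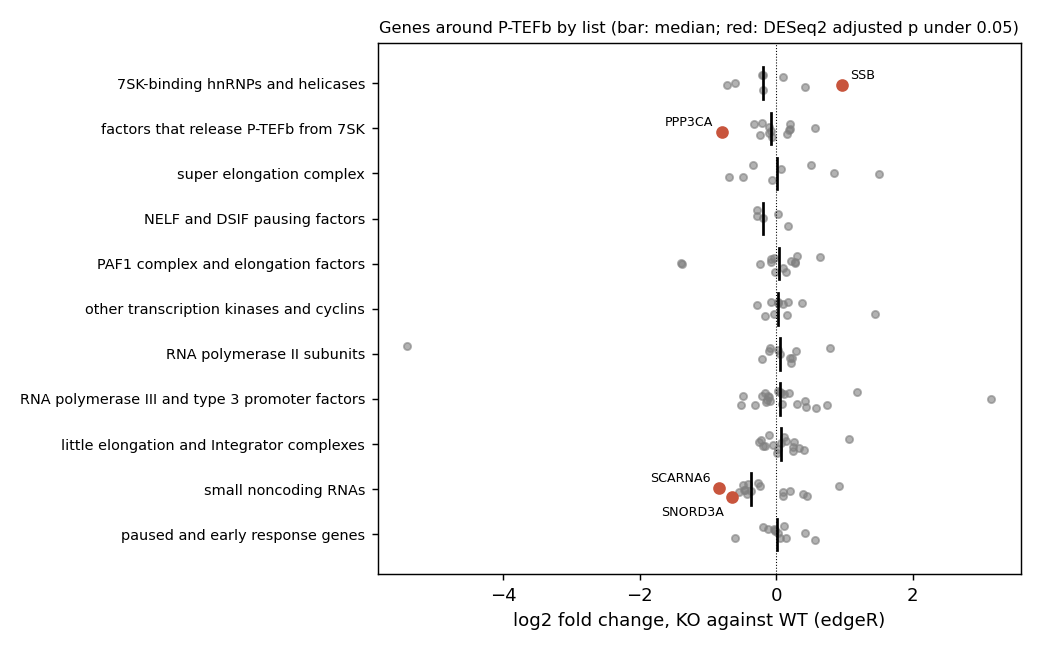
Log2 fold change of KO against WT (edgeR) for the tested genes of each list, with 1 point per gene, a black bar at the list's median, and red points for genes with a DESeq2 adjusted p under 0.05. The medians lie between -0.36, for small noncoding RNAs, and 0.07, and the 4 red points are SSB, PPP3CA, SCARNA6 and SNORD3A.

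Small noncoding RNAs other than RN7SK were tested for 17 of 45 named genes, and 15 in the table were at 0 in every library. Whether those 15 were absent from the cells or lost in preparation or annotation was not tested. The median log2 fold change of the 17 tested genes alone was -0.36, or -0.35 relative to the median of all genes. With library size alone as scaling, which moved the median of all genes by 0.16, the median was -0.23 and 11 of 17 still lay below 0. In 9 both KO values were under the lower WT value and in 3 above the higher one, against 23.5% each way over all genes. At an unadjusted p under 0.05, 6 were lower (SCARNA6, SNORA73B, TERC, SNORD3A, SCARNA5 and SCARNA12) and 0 higher, against 6.21% lower over all genes. Without WT replicate 1 the median was -0.16.

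SNORD3A stood at 36430 and 30987 CPM in WT and at 20148 and 23073 CPM in KO (log2 fold change -0.64, SE 0.21; by edgeR, adjusted p = 0.410; DESeq2 adjusted p = 0.0152). Its log2 fold change was -0.52 without WT replicate 1. With library size alone as scaling it was -0.47 (by edgeR, adjusted p = 0.0299). SCARNA6, a guide RNA of Cajal bodies, stood at 67.5 and 59.8 CPM in WT and at 35.9 and 35.2 CPM in KO (-0.84, SE 0.14; by edgeR, adjusted p = 0.253; DESeq2 adjusted p = 0.0136, or 0.703 without WT replicate 1). Both were lower in both KO libraries than in either WT library. SNORA73B, a nucleolar RNA, had 353.5 and 349.8 CPM in WT and 252.2 and 254.0 CPM in KO (-0.47; by edgeR, adjusted p = 0.296). TERC, the telomerase RNA, had 162.5 and 152.6 CPM in WT and 121.7 and 93.3 CPM in KO (-0.55; by edgeR, adjusted p = 0.381). RMRP had 27876 and 19977 CPM in WT and 19884 and 15770 CPM in KO (-0.42, SE 0.26; by edgeR, adjusted p = 0.556). Its WT replicate 2 and KO replicate 1 were nearly equal. RNU2-2P, an entry of U2 small nuclear RNA sequence, had 658.0 and 1044 CPM in WT and 659.5 and 663.3 CPM in KO (-0.36; by edgeR, adjusted p = 0.576). Several of these RNAs have near-identical copies, so their estimates are uncertain. The other tested SNORD3 entries did not share a direction. SNORD3B-1 had a log2 fold change of 0.40, with both KO libraries above both WT libraries. SNORD3B-2 and SNORD3C had -0.42 and -0.24.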

How the data were processed

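Total RNA of 4 HCT116 libraries was depleted of ribosomal RNA and sequenced as stranded pairs of 150 base reads, per the labels' protocols. The authors deposited estimated counts per gene as whole numbers, with no normalization, and RPKM, whose ratio to the counts gives 1 length per gene. The submitters' processing notes list Salmon 1.10.1 and build hg19. Annotation, summary to genes and filters: not given in the sources used here. Of 35820 rows, 16471 were at 0 in every library. Depth was 10450048 to 16143634 counts. Genes were tested with edgeR 4.0.16 (R 4.3.3; quasi-likelihood F-test, TMM, filterByExpr, genotype alone, Benjamini-Hochberg adjustment over 12269 genes, threshold 0.05); DESeq2 1.42.0 was an alternative. Intervals use the fit's standard error and degrees of freedom. The fit was tested on simulated data. GENCODE 29 (GRCh38) was matched by symbol (88.8% of rows) for identifiers, exon lengths and sequences, and no coordinates of the authors' build are given.

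The members and lists were chosen with earlier results of these data known. Besides the members and TOP3B, the text names the 4 genes of smallest p in each list and every gene called by either tool. It also names small RNAs with at least 0.1% of counts and the 5 genes nearest to RN7SK in pattern. SCARNA5, SCARNA12, SNORD3B-1, SNORD3B-2, SNORD3C, ACTB, KRT19 and the 7SK copies were named after their values were seen. Alternatives were other scalings, no filter, a replicate block, each library left out, and RPKM with a pseudocount of 0.1. Equal replicate numbers are not said to share a culture. The lists of 7SK-binding proteins, release factors, super elongation complex, NELF and DSIF, PAF1 complex, kinases, polymerases II and III, Integrator, small noncoding RNAs and early response genes are described by counts and medians alone.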

Additional observations from a re-analysis of the deposited data

How the results depend on the processing

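The count of protein-coding members past the threshold was 0 under every alternative run. MEPCE and AFF4 had log2 fold changes below 0 in every alternative run, with -0.63 to -0.19 and -0.73 to -0.26 when single libraries were left out, and CCNT1 had 0.0056 to 0.13 then and 0.22 with the deposited RPKM. Leaving out single libraries gave log2 fold changes of -0.60 to 0.17 for LARP7, -0.88 to 0.0015 for HEXIM2 and -0.82 to 0.21 for CDK9, which therefore have no stable direction. CCNT2 had 0.0202 with library size alone and 0.0227 with the deposited RPKM. The count of genes called over the whole table was 1 by edgeR, 187 by DESeq2, 42 with library size alone and 34 with no filter on low counts; leaving out single libraries gave 0 to 575. Of the wider lists, 4 genes were called by DESeq2 and 1 with library size alone, and leaving out single libraries gave 0 to 10. DESeq2 without WT replicate 1, chosen after seeing the data, called 85 genes in all and 3 of the wider lists, with 0.21 for CDK9. The highest counts arose without WT replicate 2 (575 and 10 genes); the cause was not tested. At an unadjusted p under 0.05, the wider lists held 18 genes, 41 when WT replicate 2 was left out, and 8 and 9 when KO replicate 1 or 2 was.

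With the replicate number as a block, edgeR called 1 gene in all, 0 members and 0 genes of the wider lists, and the 1 gene was the same as without the block. Deviations of same-numbered libraries had a correlation of 0.058 across genes, and the labels give no shared culture. HEXIM2 and AFF4 had 73 to 159 counts and CDK9 208 to 419, and the standard errors of HEXIM2 (0.41) and CDK9 (0.43) were alike, so counts alone do not order the intervals.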
